A study of Mus musculus with 6 samples.

Results

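Transcripts of E proteins, the Id proteins that oppose them, and the Ikaros-type zinc finger factors were compared in mouse haematopoietic stem cells (HSCs). Separate groups of libraries came from cells without and with induction of the ETV6-RUNX1 fusion. The set held 10 genes of the 55471 gene IDs in the deposited table, picked by gene name: the E protein genes Tcf3, Tcf4 and Tcf12, the Id genes Id1, Id2 and Id3, the Ikaros family genes Ikzf1, Ikzf2 and Ikzf5, and Bcl11a, a zinc finger gene of a separate family. All 6 libraries came from sorted Lin- Kit+ Sca1+ CD48- CD150+ cells of mice with the genotype label ETV6-RUNX1. The uninduced group (3 libraries) carries no treatment label, and the induced group (3 libraries) carries the label of doxycycline food for 2 weeks, so any difference covers the fusion and the drug together. The driver of the transgene, the age of the mice and whether animals were pooled are not given in the sources used here, and p-values measure the spread between these libraries only.

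E proteins are basic helix-loop-helix transcription factors that bind the E-box as dimers, with each other or with tissue-restricted partners. Id proteins have the helix-loop-helix but no DNA-binding basic region, so they trap E proteins in dimers that cannot bind. In blood formation E proteins are best known for starting the lymphoid programme, Ikaros proteins for lymphoid priming and gene silencing through the NuRD complex, and Bcl11a for B lymphoid development and for silencing embryonic globin genes. ETV6-RUNX1 is found in childhood B-cell precursor leukaemia, which arises in the lineage these factors help to set up.

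The E-box, the site that E proteins bind and Id proteins keep them from, also occurs upstream of some of these genes, and those stretches are shown to make the site visible. RefSeq promoter sequences of build GRCm38.p6 matched 7 members by symbol: Tcf3, Tcf12, Id2, Id3, Ikzf1, Ikzf5 and Bcl11a. In the 250 bases before the start, the letters CANNTG, which read the same on both strands, occurred in at least 1 listed promoter of 4 of the 7 members. Across 32851 promoters of that length the share was 66.2%. Here and below, member counts are per gene over all its listed starts, while shares are per single promoter. Each line gives, for 1 start of each of these genes, 30 bases on the gene's strand, 5′ to 3′, with the E-box in capitals.
Tcf3, chr10:80433672-80433701, minus strand: agtgggcgtggtCACTTGggggcgtggctt
Tcf12, chr9:72112040-72112069, minus strand: agatgctgccCAGCTGcgtccccgtcgcgg
Id2, chr12:25096271-25096300, minus strand: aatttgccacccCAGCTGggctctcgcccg
Bcl11a, chr11:24080497-24080526, plus strand: atgtcttttctgCATTTGtcgagggagggg
The RefSeq starts behind these 4 stretches all lie inside the GENCODE M21 span of their gene. The Id2 and Bcl11a stretches themselves lie inside that span, and the Tcf3 and Tcf12 stretches lie outside it. The form CAGCTG, a subset of CANNTG, was before the listed start of Tcf12 and Id2, and 13% of all promoters held it. On either strand, TGTGGT and TGCGGT, forms of the Runx site, were in none of the 7 members' windows, against 14.0% and 5.1% of all promoters. The letters TGGGAA, which contain the core of the Ikaros site, were upstream of Bcl11a alone among the 7, against 21.6% of all promoters. These matches describe letters in a window and do not show binding.

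The scale of the values bears on every comparison. TPM is a gene's length-corrected share of the transcripts in a library, brought to the same total in each library, so levels can be compared between genes, but the depth behind a value is unknown. On the deposited scale the median of 13470 tested genes was -0.35 on the log2 scale in induced minus uninduced cells, and after median-of-ratios scaling, which sets the typical gene equal between libraries, it was 0.0033. Each tested member is therefore given on both scales. In the 6 libraries all 12 stem cell markers examined passed the expression minimum of a mean of 1 TPM. Of 8 B-lineage markers, 6 were listed at 0 in every library, including Cd79a, Ebf1 and Pax5. Cd79b was present, at 4.21, 9.86 and 7.06 TPM in uninduced and 3.85, 3.11 and 3.59 TPM in induced libraries (limma adjusted p 0.197). Summed erythroid markers (9 genes) were at 54.6 to 60.6 TPM in uninduced and 402 to 467 TPM in induced libraries. Most of the induced sum came from the adult globin genes Hba-a1, Hba-a2, Hbb-bs and Hbb-bt. On the deposited scale limma called 6 of the 8 tested erythroid genes higher and 0 lower, against 1.29% and 10.2% of all genes. Epor lay lower without overlap (3.42, 2.10 and 4.57 against 0, 0 and 1.45 TPM) but was not called (limma adjusted p 0.0638). Summed markers of dividing cells (8 genes) were at 176 to 214 TPM in uninduced and 22.1 to 31.0 TPM in induced libraries. T and NK cell markers (9 genes, 5 of them listed at 0 throughout, among them Cd3d, Cd3e and Cd3g) summed to 8.22 to 31.7 and 0.601 to 7.43 TPM. Of these, Nkg7 was at 6.21, 15.8 and 5.84 TPM in uninduced libraries and at 0 in all induced ones. It was called lower on both scales (limma adjusted p 0.00378, and 0.00578 after scaling). Lck overlapped, at 5.72, 14.5 and 2.38 against 0.348, 6.69 and 3.85 TPM. The summed myeloid, megakaryocyte and dendritic lists overlapped between groups. Within the myeloid, megakaryocyte and dendritic lists limma called the myeloid gene Prtn3 and the megakaryocyte genes Pf4 and Ppbp higher on the deposited scale. It called the megakaryocyte gene Gp9 lower (adjusted p 0.0114, 0.0253, 0.00343 and 0.0187, in that order). After scaling the call of Gp9 was lost (limma adjusted p 0.0625). The myeloid gene Lyz2 and the dendritic gene Irf8 were then also called higher (limma adjusted p 0.0130 and 0.0459). The part of these lists in the members' values was not tested.

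No member changed with induction by the test used. Of the 10 members 9 reached the expression minimum and were tested, and limma, with Benjamini-Hochberg adjustment over all 13470 genes at 0.05, called 0 of 9 on the deposited scale, where it called 11.5% of all genes. After median-of-ratios scaling it again called 0 of 9, against 5.98% of all genes. At an unadjusted p under 0.05 there was 1 member on the deposited scale (Tcf3, lower), against 27.9% of all genes (24.2% lower and 3.73% higher). After scaling there were 2 (Id1 and Ikzf2, higher), against 21.8% of all genes (10.7% higher and 11% lower). The groups did not overlap in 1 of 9 members on the deposited scale (Id2, lower), against 33.1% of all genes (28.2% lower and 4.83% higher). After scaling they were apart in 3 of 9 (Id1, Ikzf2 and Bcl11a, all higher), against 27.9% of all genes (13.6% higher and 14.3% lower). The count stayed at 0 under each of the 23 alternatives run. The median log2 change of the 9 was -0.27, beside -0.35 for all genes, and after scaling 0.12 beside 0.0033. In data simulated over 13470 genes, the fit recovered 30% of 100 genes changed by 1 log2 unit and 89% of 100 changed by 2. Far fewer genes were changed there than were called here, which alters the adjustment. The changed genes were also drawn only from levels above those of Id1, Id2 and Ikzf5. These shares therefore do not give the recovery for the members, and a missing call does not show that a member is unchanged. In bulk libraries, fewer cells of a type and less RNA per cell cannot be told apart.

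**Figure D1:**
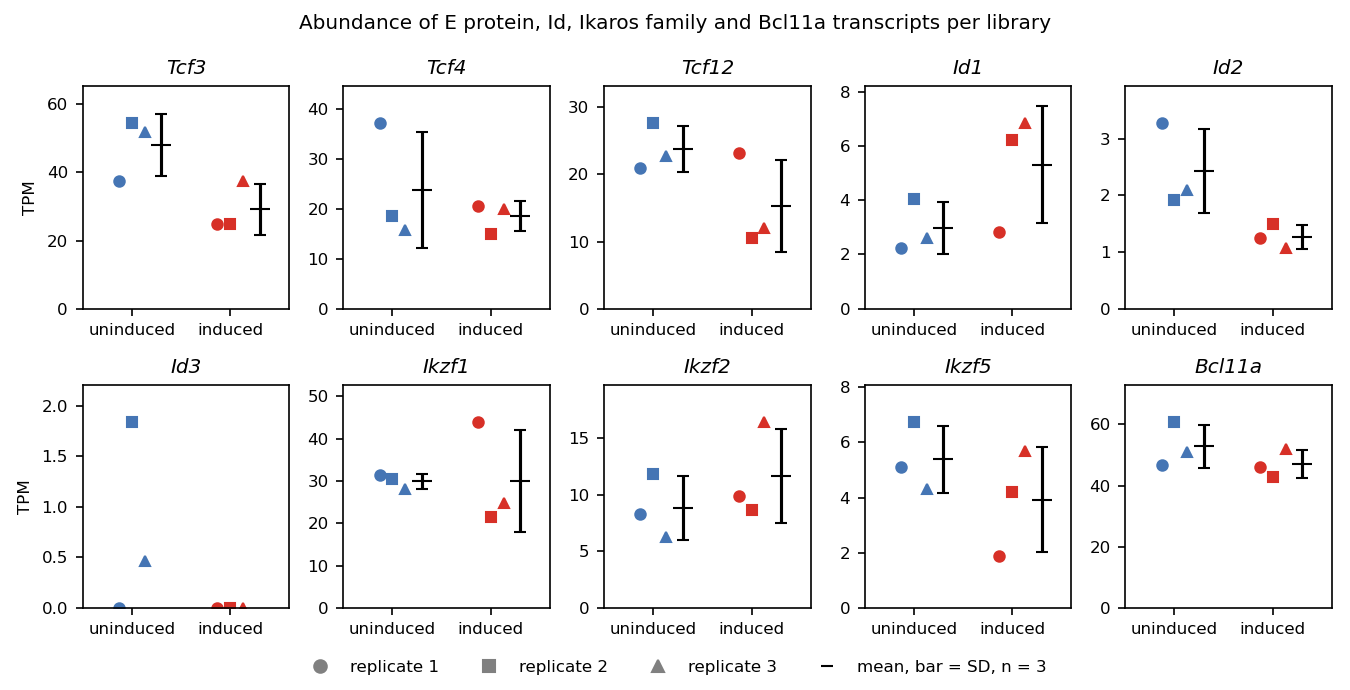
TPM of each member in the 3 uninduced (blue) and 3 induced (red) libraries, with a linear axis from 0 in each panel; symbols mark the replicate number and the black bar is the mean with its SD (not drawn for Id3, which is listed at 0 in 4 libraries). The groups are apart in Id2 only, with all induced libraries at 1.49 TPM or less and all uninduced at 1.92 TPM or more.

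None of the 3 E protein genes passed the test. On the deposited scale all 3 had a lower mean in induced cells, and after scaling Tcf3 and Tcf12 did. Tcf3 (ENSMUSG00000020167, GRCm38 chr10:80409514-80433647, minus strand) encodes E12 and E47, the E proteins needed to enter the B lineage. Its levels were 37.5, 54.5 and 51.8 TPM in uninduced replicates 1 to 3 and 24.7, 25.0 and 37.6 TPM in induced replicates 1 to 3. The groups met at a single point, as induced replicate 3 lay level with uninduced replicate 1. The mean was 47.9 ± 9.12 TPM (SD, n = 3) without and 29.1 ± 7.36 TPM (SD, n = 3) with doxycycline, a log2 change of -0.71 (95% interval -1.24 to -0.18, limma adjusted p 0.0852). After scaling it was -0.31 (95% interval -0.81 to 0.19, limma adjusted p 0.471). Between 25.1% of all tested genes on the deposited scale and 28.1% after scaling had a more negative change than Tcf3.

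Tcf12 (ENSMUSG00000032228, chr9:71842688-72111871, minus strand) encodes HEB, which pairs with E2A proteins in lymphoid progenitors. It stood at 21.02, 27.6 and 22.7 TPM in uninduced libraries and at 23.2, 10.6 and 12.0 TPM in induced libraries. Induced replicate 1 lay within the uninduced range, and the other two induced libraries lay below it. The log2 change was -0.68 (95% interval -1.36 to 0.0015, limma adjusted p 0.180), and without induced replicate 1 it was -1.003 (limma adjusted p 0.0679). After scaling the change was -0.29 (limma adjusted p 0.624).

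Tcf4 (ENSMUSG00000053477, chr18:69343356-69689079, plus strand) encodes E2-2, the E protein that specifies plasmacytoid dendritic cells. Uninduced libraries held 37.1, 18.5 and 15.8 TPM and induced libraries 20.5, 15.02 and 19.9 TPM, so uninduced replicate 1 was high and the other 5 libraries lay close together. The log2 change was -0.27 (95% interval -0.98 to 0.45, limma adjusted p 0.628). It was 0.093 without uninduced replicate 1 and 0.12 after scaling, so its sign rested on that library and on the scale.

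The 3 E protein transcripts summed to 95.6, 101 and 90.3 TPM in uninduced and 68.4, 50.6 and 69.5 TPM in induced libraries, without overlap. After scaling the sums were 81.1, 80.5 and 87.0 against 78.4, 62.4 and 75.2, still apart but with the nearest libraries close, and the ratio of the group means moved from 0.658 to 0.869. Among all single genes, 28.2% were apart and lower as deposited and 14.3% after scaling, and none of the 3 E protein genes was. The shares of the 3 genes in the sum overlapped. Tcf3 made up 39.2 to 57.4% of the sum in uninduced and 36.2 to 54.1% in induced libraries, so it was the most abundant E protein transcript in each library.

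Id transcripts were scarce beside those of the E proteins. Id1 (ENSMUSG00000042745, chr2:152736251-152737410, plus strand), an Id gene induced by BMP signals, stood at 2.25, 4.06 and 2.60 TPM in uninduced and at 2.84, 6.23 and 6.84 TPM in induced libraries. Induced replicates 2 and 3 were the highest of the 6 libraries and induced replicate 1 lay within the uninduced range. The log2 change was 0.63 (95% interval -0.27 to 1.52, limma adjusted p 0.344), and 93.3% of tested genes had a smaller one. After scaling the groups almost met, with the highest uninduced library at 3.251 and the lowest induced library at 3.258. They count as apart, as for 13.6% of all tested genes in that direction, and the change was 0.95 (95% interval 0.071 to 1.83, limma unadjusted p 0.0370, adjusted p 0.196). Leaving out induced replicate 1 gave 0.95 on the deposited scale (limma adjusted p 0.208).

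Id2 (ENSMUSG00000020644, chr12:25093799-25097140, minus strand), known for its role in innate lymphoid and natural killer cells, was at 3.28, 1.92 and 2.10 TPM in uninduced and 1.25, 1.49 and 1.07 TPM in induced libraries. Every induced library lay below every uninduced library, as did 28.2% of all tested genes on the deposited scale. Its log2 change was -0.58 (95% interval -1.47 to 0.32, limma adjusted p 0.384), and after scaling the groups overlapped, at -0.32 (limma adjusted p 0.686).

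Id3 (ENSMUSG00000007872, chr4:136143497-136145755, plus strand), which restrains E proteins in lymphocytes, was listed at 0, 1.83 and 0.467 TPM in uninduced libraries and at 0 in all 3 induced libraries. It was under the expression minimum and was not tested in the main comparison. Without the filter its limma adjusted p was 0.405.

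The ratio of Id1 to Id2, which does not depend on the scaling between libraries, was 0.685, 2.12 and 1.24 in uninduced and 2.27, 4.19 and 6.40 in induced libraries. Every induced library had the higher ratio, with the gap small between uninduced replicate 2 and induced replicate 1. Among all pairs of tested genes above 0 TPM in each library, 25.6% had ratios that were apart between groups. Id1 accordingly held 40.7 to 52.0% of the Id transcripts in uninduced and 69.4 to 86.5% in induced libraries. The ratio of summed Id to summed E protein TPM was 0.0578, 0.0777 and 0.0572 in uninduced libraries and 0.0599, 0.153 and 0.114 in induced libraries. Induced replicate 1 was within the uninduced range, so this ratio did not separate the groups.

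**Figure D2:**
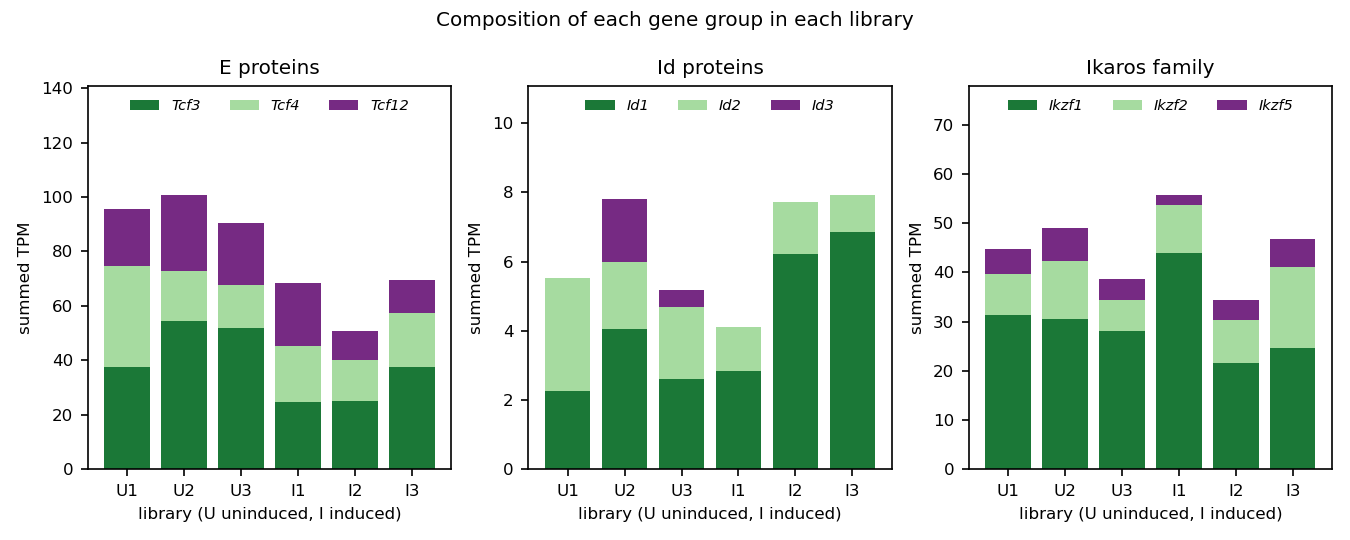
Stacked TPM of the E protein, Id and Ikaros family genes in each library (U1 to U3 uninduced, I1 to I3 induced replicates 1 to 3), on linear axes from 0. The summed E protein bars lie between 90.3 and 101 TPM in uninduced and between 50.6 and 69.5 TPM in induced libraries, and Id1 fills 69.4 to 86.5% of the induced Id bars.

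In the Ikaros family, no gene passed the test and the signs were mixed. The 3 transcripts summed to 44.7, 49.0 and 38.6 TPM in uninduced and 55.7, 34.4 and 46.8 TPM in induced libraries, which overlapped. After scaling the sums were 38.0, 39.2 and 37.2 against 63.8, 42.5 and 50.6, apart and higher in the induced group. Of all single genes, 13.6% were apart and higher on that scale. Ikzf1 (ENSMUSG00000018654, chr11:11685003-11772926, plus strand) encodes Ikaros, whose loss is frequent in B-cell precursor leukaemia. It was at 31.3, 30.4 and 28.0 TPM in uninduced and 43.9, 21.6 and 24.7 TPM in induced libraries. The uninduced values were tight, with an SD of 1.71 TPM, while the induced ones had an SD of 12.1 TPM, with induced replicate 1 above and the other two below every uninduced library. The log2 change was -0.059 (95% interval -0.66 to 0.54, limma adjusted p 0.910). It was -0.36 without induced replicate 1, 0.14 without induced replicate 2, 0.044 without induced replicate 3, and 0.34 after scaling.

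Ikzf2 (ENSMUSG00000025997, chr1:69531214-69687245, minus strand) encodes Helios, a family member expressed in stem cells and in regulatory T cells. Its levels were 8.32, 11.8 and 6.29 TPM in uninduced and 9.91, 8.65 and 16.4 TPM in induced libraries. Induced replicate 3 was the highest and the rest overlapped. The log2 change of 0.36 (95% interval -0.39 to 1.10, limma adjusted p 0.523) was 0.10 without induced replicate 3. After scaling the groups were apart, at 7.06, 9.49 and 6.05 against 11.4, 10.7 and 17.7, with a change of 0.73 (95% interval 0.070 to 1.38, limma unadjusted p 0.0336, adjusted p 0.186).

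Ikzf5 (ENSMUSG00000040167, chr7:131388652-131410521, minus strand) encodes Pegasus, a divergent member of the family. It was at 5.11, 6.73 and 4.31 TPM in uninduced and 1.89, 4.19 and 5.68 TPM in induced libraries, with induced replicate 1 lowest. The log2 change was -0.44 (95% interval -1.33 to 0.44, limma adjusted p 0.505), and -0.099 without induced replicate 1. After scaling it was -0.11 (95% interval -0.97 to 0.75, limma adjusted p 0.905), and the groups again overlapped. In GENCODE M21 its exons cover 5721 bases, of which 4652 are also exonic in Pstk on the other strand. Pstk, a kinase gene of selenocysteine synthesis, was at 17.4, 2.78 and 12.4 TPM in uninduced and 10.8, 4.23 and 3.39 TPM in induced libraries. The libraries were made with a stranded kit, but whether strand was used in the quantification is not given in the sources used here, so the values of Ikzf5 are uncertain.

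Bcl11a (ENSMUSG00000000861, chr11:24078056-24174123, plus strand) had the highest mean of the 10 in both groups. It stood at 46.7, 60.7 and 51.1 TPM in uninduced and 46.1, 42.9 and 51.9 TPM in induced libraries. Induced replicate 3 lay within the uninduced range and the other two induced libraries just below it. Among 21920 nuclear protein-coding genes it ranked between the 94.9th and the 96.9th percentile in each library. The log2 change was -0.16 (95% interval -0.58 to 0.25, limma adjusted p 0.613). After scaling all induced libraries (52.8, 53.0 and 56.1) lay above all uninduced ones (39.6, 48.6 and 49.2), at 0.24 (95% interval -0.11 to 0.59, limma adjusted p 0.426). These were the narrowest intervals of the 9 tested members on each scale.

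**Figure D3:**
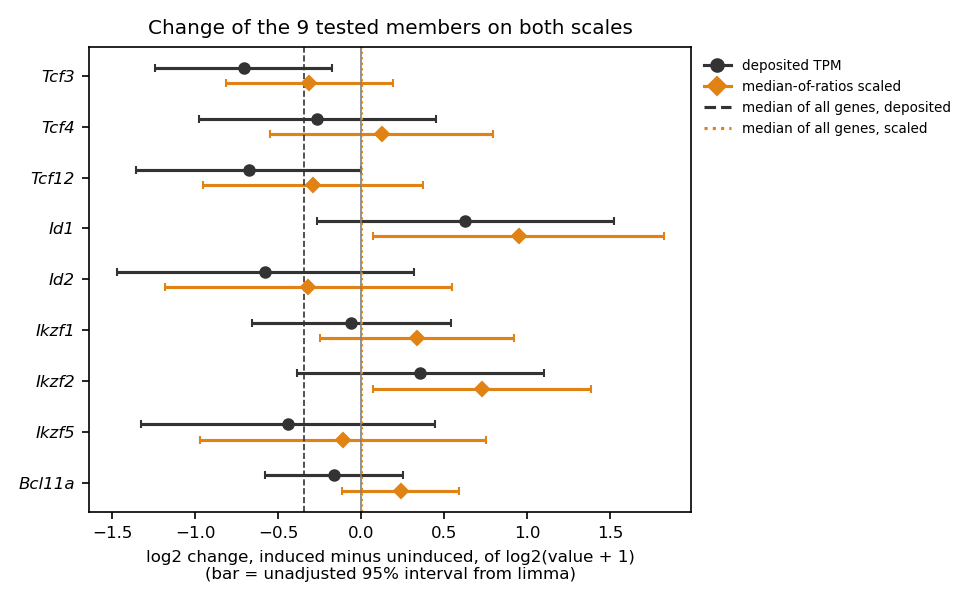
Log2 change (induced minus uninduced) of the 9 tested members on log2(value + 1), from deposited TPM (dark circles) and after median-of-ratios scaling (orange diamonds), with unadjusted 95% intervals from limma; vertical lines mark 0 and the median of all tested genes on each scale. The circles run from -0.71 (Tcf3) to 0.63 (Id1), around the dashed median of -0.35.

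The order of mean levels in uninduced cells ran Bcl11a, Tcf3, Ikzf1, Tcf12, Tcf4, Ikzf2, Ikzf5, Id1, Id2 and Id3. Neighbours whose libraries overlapped were Bcl11a with Tcf3, Tcf12 with Tcf4, Ikzf2 with Ikzf5, and Id1 with Id2. In induced cells Ikzf1 stood before Tcf3, Tcf4 before Tcf12 and Id1 before Ikzf5, each of these neighbours overlapping, as did Bcl11a with Ikzf1 and Tcf12 with Ikzf2.

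Ratios between members were compared because they are free of the scaling. Of the 36 pairs among the 9 members above 0 TPM in each library, 8 had ratios that did not overlap between groups, against 25.6% of all pairs of tested genes, so the share was near the background. Pairs share genes and are not independent. Tcf3, Id1 and Ikzf2 took part in 3 such pairs each and Tcf4 in 0. The ratio of Tcf3 to Id1 was 13.4 to 19.9 in uninduced and 4.01 to 8.70 in induced libraries, and that of Tcf3 to Ikzf2 was 4.51 to 8.24 and 2.29 to 2.89. Tcf3 to Bcl11a gave 0.803 to 1.01 and 0.537 to 0.724. In its other 5 pairs the ratios of Tcf3 overlapped between groups.

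The remaining Id, Ikaros and Bcl11 genes added little. Id4, Ikzf3 (Aiolos, a factor of mature lymphocytes) and Bcl11b (a T lineage factor) were listed at 0 in all 6 libraries. Ikzf4, which encodes Eos, was between 0.506 and 1.78 TPM, and its groups overlapped (log2 change 0.25, limma adjusted p 0.761).

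Genes that act with E proteins changed in a few places. Of 23 bHLH, LIM-domain and bridging genes 12 were tested, and on the deposited scale 1 was called higher and 1 lower, against 1.29% and 10.2% of all genes. After scaling 2 were called higher and 0 lower, against 2.88% and 3.1% of all genes. Bhlhe40, a bHLH repressor, rose from 10.3, 12.2 and 5.28 TPM to 32.6, 22.2 and 27.1 TPM, without overlap. Its log2 change was 1.52 (SE 0.32, limma adjusted p 0.0160) and 1.90 after scaling (limma adjusted p 0.00648), and the deposited-scale call was lost without induced replicate 1 (limma adjusted p 0.0643) and without the expression filter (limma adjusted p 0.0678). Ssbp3, which stabilises the Ldb1 bridge of these complexes, was called lower on the deposited scale. It was at 48.2, 53.4 and 31.1 TPM in the uninduced group, above the 21.1, 15.3 and 22.8 TPM of the induced group, with a log2 change of -1.11 (limma adjusted p 0.0252). This call did not hold after scaling (-0.71, limma adjusted p 0.0837), nor without uninduced replicate 1 or 2 or induced replicate 1 or 2 (limma adjusted p 0.0616 to 0.0990), and it was kept in 6 of the 23 alternatives. Lmo2, the LIM-domain partner of Tal1, was at 308 ± 29.8 and 364 ± 50.7 TPM (SD, n = 3 each) and was not called on the deposited scale (0.24, limma adjusted p 0.347). After scaling it was called higher (0.64, limma adjusted p 0.0125) but it was not called without induced replicate 3 (limma adjusted p 0.0512) or under quantile normalization (0.52, limma adjusted p 0.0543). The median change of the 12 was -0.12, beside -0.35 for all genes, and after scaling 0.26 beside 0.0033.

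Among the corepressors that Ikaros proteins and Bcl11a recruit, most calls rested on the deposited scale, on which all genes lean lower. All 20 genes of the NuRD, CtBP and Sin3 list were tested, 6 were called lower and 1 higher, against 10.2% and 1.29% of all genes. Their median was -0.49, beside -0.35 for all genes, and 17 had a negative change. After scaling 1 was called lower and 2 higher, against 3.1% and 2.88% of all genes, with a median of -0.10 beside 0.0033. Chd3, a NuRD remodelling ATPase, rose from 29.1, 32.3 and 46.5 to 62.4, 76.0 and 67.4 TPM (log2 change 0.94, SE 0.22, limma adjusted p 0.0232, and 1.34 after scaling with adjusted p 0.0160). Rbbp7, a histone-binding subunit, fell from 158, 186 and 136 to 51.7, 72.4 and 89.7 TPM (log2 change -1.18, SE 0.22, limma adjusted p 0.0102, and -0.77 after scaling with adjusted p 0.0485). Both genes were apart between groups, and each call was kept in 13 of the 23 alternatives. With no expression filter the limma adjusted p was 0.0658 for Chd3 and 0.0545 for Rbbp7, and with no variance trend it was 0.0797 and 0.0572. Under quantile normalization Rbbp7 had a limma adjusted p of 0.0565, and with the replicate block and scaling 0.0702. Chd3 was no longer called on the deposited scale with 1 library fewer (limma adjusted p 0.0566 to 0.0967), save where that library was uninduced replicate 3. After scaling its call was lost without uninduced replicate 2, induced replicate 2 or induced replicate 3 (limma adjusted p 0.0515 to 0.0695). The scaled Rbbp7 call was lost with each of the 6 libraries left out in turn (limma adjusted p 0.0590 to 0.119), and its deposited-scale call was kept with each left out. Mbd3, Gatad2a, Rbbp4 and Hdac2 were called lower on the deposited scale and not after scaling, with deposited-scale log2 changes of -0.88, -0.83, -0.82 and -0.81. With a library left out, Mbd3 and Gatad2a kept the call only without uninduced replicate 3, Hdac2 only without uninduced replicate 2, and Rbbp4 in no case (limma adjusted p of lost calls 0.0518 to 0.132). Each of these 4 calls was kept in 5 of the 23 alternatives. Rbbp4 and Rbbp7 also serve in histone assembly, and the markers of dividing cells summed to 176 to 214 TPM in uninduced and 22.1 to 31.0 TPM in induced libraries; their part in these calls was not tested.

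The BMP pathway, which induces Id genes, gave no call. Of 20 genes (ligands, receptors, Smads, Smurf1, Smurf2 and Bambi) 12 were tested and limma called 0 on either scale. At an unadjusted p under 0.05 there were 3 on the deposited scale and 1 after scaling. The list holds inhibitors of the pathway, such as Smad6 and Smad7, so its median gives no direction of signalling. All tested genes had 27.9% and 21.8% at that level. The median change of the 12 was -0.51, beside -0.35 for all genes, and after scaling -0.18 beside 0.0033.

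Known targets of E proteins were mostly silent. Of 27 such genes 14 were listed at 0 in all 6 libraries, among them Ebf1, Pax5, Il7r and Dntt, and 9 were tested. Hes1, a bHLH repressor downstream of Notch, fell from 9.92, 19.2 and 5.94 to 0.374, 0.517 and 0.250 TPM. Its log2 change was -3.07 (limma SE 0.45 and adjusted p 0.00415) and -2.82 after scaling (limma adjusted p 0.00727). Gfi1, a zinc finger repressor of stem and progenitor cells, rose from 3.88, 3.46 and 2.16 to 12.5, 13.6 and 12.5 TPM. Its log2 change was 1.76 (limma SE 0.30 and adjusted p 0.00710) and 2.10 after scaling (limma adjusted p 0.00447). The groups were far apart in both genes, and both calls held under each of the 23 alternatives. On both scales 1 gene of the list was called higher and 2 lower, against 1.29% and 10.2% of all genes as deposited and 2.88% and 3.1% after scaling.

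Embryonic globin genes, the classical targets of Bcl11a silencing, were at 0. Hbb-y, Hbb-bh1, Hbb-bh2 and Hba-x were listed at 0 in all 6 libraries, although the summed erythroid markers, which include adult globins, were at 402 to 467 TPM in the induced ones. The other silencer genes Zbtb7a, Sox6 and Nfix were tested and limma called 0 of 3, with 0 at an unadjusted p under 0.05 on either scale, against 27.9% of all genes as deposited and 21.8% after scaling. After scaling the groups of Sox6 and Nfix were apart, both higher in induced libraries, as for 13.6% of all genes.

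**Figure D4:**
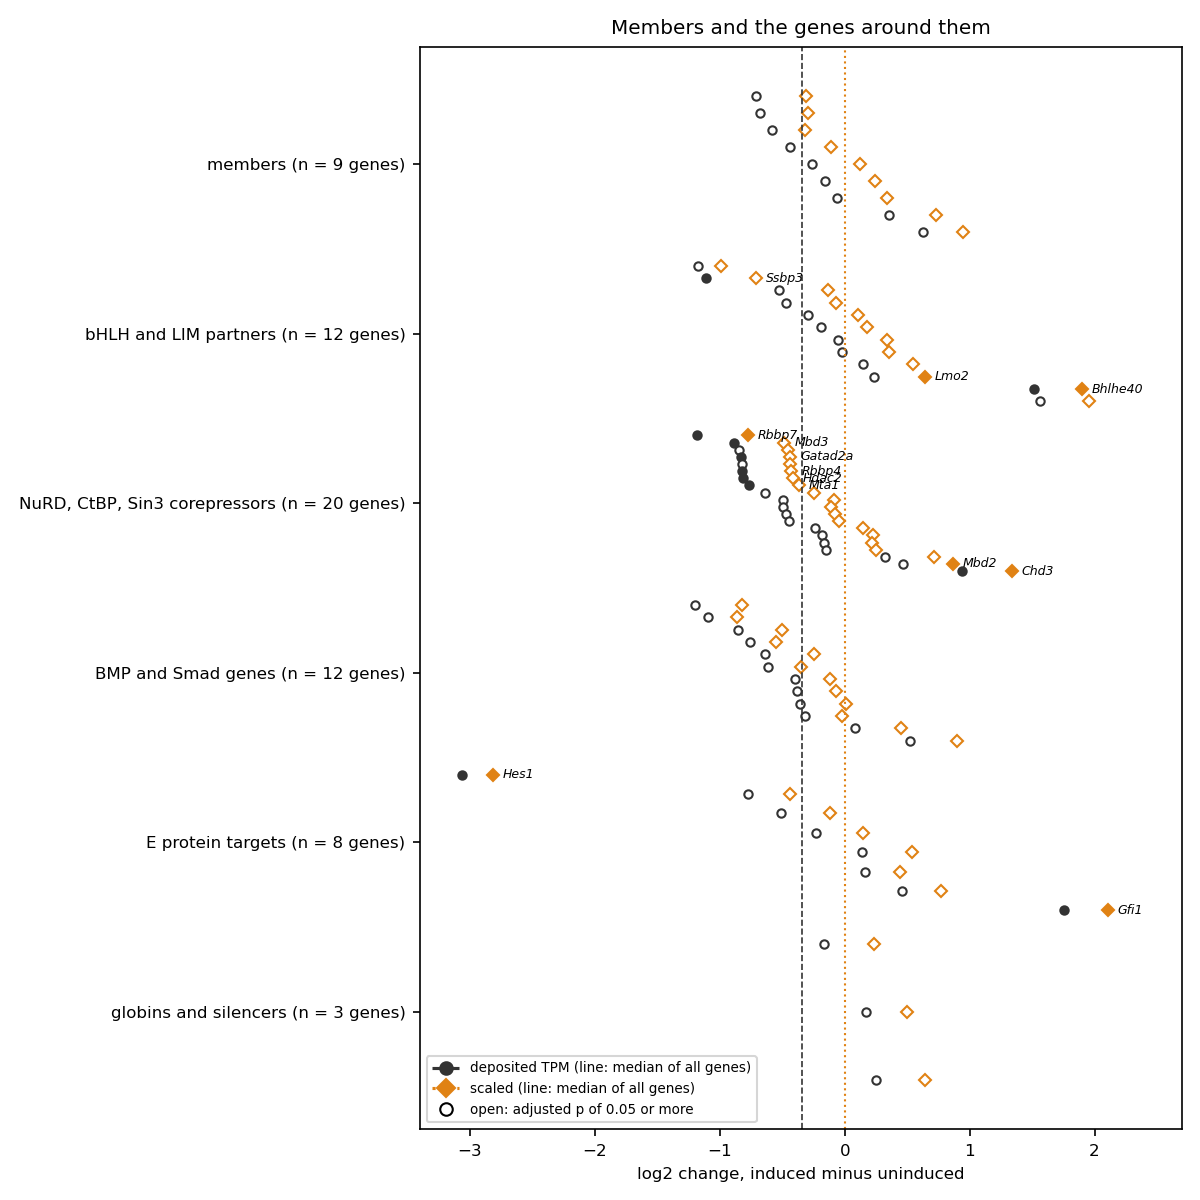
Log2 change (induced minus uninduced) of the tested members and of the tested genes of 5 surrounding lists (genes listed at 0 in a whole group are not drawn), from deposited TPM (dark circles) and after median-of-ratios scaling (orange diamonds); filled symbols passed limma at an adjusted p under 0.05 and the lines are the medians of all tested genes. All 18 member symbols are open, while Hes1 (-3.07), Gfi1 (1.76) and Bhlhe40 (1.52) are filled on both scales.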

How the data were processed

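Total RNA of sorted cells was made into libraries with a stranded pico-input kit and read as pairs on a NovaSeq instrument, per the labels' protocols. The authors deposited gene-level TPM values in a single table of 60496 rows. The submitters' processing notes name bcl2fastq, HISAT2, StringTie, DESeq2 and GRCm38, and their settings and the annotation release are not given in the sources used here. Rows were summed per gene ID, columns were matched to libraries by title, and genes whose mean reached 1 TPM were tested as log2(TPM + 1). The test was that of limma 3.58.1, run under R 4.3.3 (moderated, with a variance trend, two-sided, Benjamini-Hochberg over 13470 genes, threshold 0.05). A log2 change on this scale understates that of low genes. Intervals are 95% and unadjusted. Sums and ratios between members have no test, and those other than the Id to E protein ratio were added after the members' levels were seen. Gene coordinates and exon overlaps come from GENCODE M21 (GRCm38).

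The members and gene lists were chosen with earlier results of these data known. The named genes are the 10 members, the other family genes, and up to 6 called genes per list with the largest change, of which 1 is not reported here. Genes most like a member in pattern were to be named for members called on both scales, and none was. The fit was tested on simulated data, where 8 of 127 calls were false. Alternatives were other pseudocounts (0.1 and 5), filters, scalings, variance models, a replicate block, and fits with each library removed in turn.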

Additional observations from a re-analysis of the deposited data

How the results depend on the processing

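The count of 0 members called held under all 23 alternatives, the replicate block included. The total of 1549 genes called became 752 without the expression filter, 806 with median-of-ratios scaling, 814 with quantile normalization, 886 after rescaling to nuclear protein-coding genes, 767 without the variance trend, 902 with the replicate block and 452 with the block and scaling. Leaving out a library gave 611 to 1276 genes as deposited. With scaling it gave 467, 469 and 351 without uninduced replicates 1, 2 and 3, and 345, 331 and 336 without induced replicates 1, 2 and 3. Beyond fewer libraries or more genes tested, the cause was not tested. Higher calls made up 174 of 1549 as deposited and 388 of 806 after scaling.

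Members near 0 changed sign with the scale. Under median-of-ratios scaling, quantile normalization, protein-coding rescaling and the block with scaling, Tcf4 was 0.12, 0.12, 0.16 and 0.12, Ikzf1 was 0.34, 0.34, 0.37 and 0.34, and Bcl11a was 0.24, 0.23, 0.27 and 0.24. As deposited with a library left out, Tcf4 ranged from -0.50 to 0.093, above 0 without uninduced replicate 1. Ikzf1 ranged from -0.36 to 0.14, above 0 without induced replicate 2 (0.14) or 3 (0.044). With scaling and uninduced replicate 1, 2 or 3 left out, Bcl11a was 0.14, 0.28 and 0.29 and Ikzf1 was 0.35, 0.29 and 0.36. With scaling and induced replicate 1, 2 or 3 left out, Bcl11a was 0.26, 0.25 and 0.22, Ikzf1 was 0.043, 0.49 and 0.49, and Tcf4 was 0.053, 0.21 and 0.11. With scaling, Tcf4 was 0.46 without uninduced replicate 1 and stayed negative without uninduced replicate 2 or 3. Ikzf5 was 0.25 with scaling without induced replicate 1. Tcf3, Tcf12, Id1, Id2 and Ikzf2 kept their sign in each alternative in which they were tested, with limma adjusted p of 0.0634 or more. Id1, Id2 and Ikzf5 gave no value at a minimum mean of 5 TPM.

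Deviations of same-numbered libraries from their group means correlated at 0.021, -0.015 and 0.017, so no shared effect of the replicate numbers was seen. Whether the libraries were paired is not given in the sources used here, so the 902 calls under the replicate block stand beside the main fit. TPM keeps no depth, so what counting error adds to Id1, Id2, Id3 and Ikzf5 is unknown.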

Other observations

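Tal1 and Lyl1, bHLH partners of E proteins that can stand in for each other in blood cells, varied widely between uninduced libraries and were singled out after their values were seen. Tal1 was at 10.2, 44.7 and 5.28 TPM in uninduced and 38.6, 49.7 and 40.2 TPM in induced libraries, and Lyl1 at 56.9, 16.6 and 39.5 and at 29.3, 20.9 and 19.9 TPM. Uninduced replicate 2 had the highest Tal1 and the lowest Lyl1 of its group, and Tal1 did not pass the test (log2 change 1.56, limma adjusted p 0.111). After scaling Tal1 was at 8.68, 35.8 and 5.08 in uninduced and 44.3, 61.3 and 43.5 in induced libraries, which did not overlap, and it again did not pass (1.95, limma adjusted p 0.0794).

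Induced replicate 1 held the highest Ikzf1 and Tcf12 and the lowest Id1 and Ikzf5 of its group.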
